A study of Mus musculus with 12 samples.

Results

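The aquaporins described here are 8 genes, Aqp1, Aqp3, Aqp4, Aqp5, Aqp7, Aqp8, Aqp9 and Aqp11, of the 12 aquaporin genes and 37675 genes listed in the deposited tables. The 8 were chosen by symbol, with their counts and RPKM values in all 12 libraries already known, so every level, change and call of a member given here, and every count of members under a threshold, is a description that supports nothing. The p-value of a single member is not printed. Each sample was the whole testis tissue of a single mouse of the inbred strain C57BL/6NHsd, and 2 mice were taken per age, at postnatal day (PND) 7, 14, 17, 21 and 28. The labels name no treatment or genetic change, and the ages follow the first wave of spermatogenesis, in which each new germ cell type appears in turn. The libraries held RNA from which ribosomal RNA had been removed and were read on the SOLiD 4 instrument, and each PND 7 mouse was read under 2 barcodes, which were combined here, so that 12 libraries became 10 mice.

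Aquaporins are channels of the cell membrane, built as tetramers in which each subunit has its own pore. Aqp1, Aqp4, Aqp5 and Aqp8 are classed as water channels, Aqp3, Aqp7 and Aqp9 are aquaglyceroporins, which also let glycerol pass, and Aqp11 is a distant member found on membranes inside the cell. In the male tract, water leaves the cytoplasm of spermatids as they elongate, fluid is moved by the somatic epithelia, and glycerol is a substrate that germ cells and sperm can take up.

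The 4 members that were called higher at PND 28 than at PND 7 have unlike promoters. The sequences are shown because Aqp7 and Aqp11 were both highest at PND 28 while the CpG content of their start regions lies far apart. Each window covers 250 bases before to 50 bases after the first start that RefSeq lists for the gene (build GRCm38.p6), read 5′ to 3′ on the strand of the gene, with every CpG in capitals.
Aqp7, chr4:41048087-41048386, minus strand: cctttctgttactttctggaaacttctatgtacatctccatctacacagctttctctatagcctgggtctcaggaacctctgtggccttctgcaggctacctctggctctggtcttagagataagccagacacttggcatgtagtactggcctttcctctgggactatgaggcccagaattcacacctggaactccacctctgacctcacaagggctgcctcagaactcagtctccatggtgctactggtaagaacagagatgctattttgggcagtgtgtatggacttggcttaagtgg
Aqp11, chr7:97738198-97738497, minus strand: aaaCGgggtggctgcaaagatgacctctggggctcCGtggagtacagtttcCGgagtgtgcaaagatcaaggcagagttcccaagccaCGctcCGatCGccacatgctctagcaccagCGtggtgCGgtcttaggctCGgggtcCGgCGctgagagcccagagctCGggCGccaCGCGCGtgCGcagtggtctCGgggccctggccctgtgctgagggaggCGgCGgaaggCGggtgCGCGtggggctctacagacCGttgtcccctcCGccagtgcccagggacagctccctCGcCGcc
Aqp8, chr7:123462044-123462343, plus strand: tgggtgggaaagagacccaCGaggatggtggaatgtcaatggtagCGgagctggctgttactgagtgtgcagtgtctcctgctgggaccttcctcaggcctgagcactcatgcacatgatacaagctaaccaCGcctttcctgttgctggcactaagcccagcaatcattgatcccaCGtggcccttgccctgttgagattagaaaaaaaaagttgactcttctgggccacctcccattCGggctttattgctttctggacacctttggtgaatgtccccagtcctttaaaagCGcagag
Aqp9, chr9:71163240-71163539, minus strand: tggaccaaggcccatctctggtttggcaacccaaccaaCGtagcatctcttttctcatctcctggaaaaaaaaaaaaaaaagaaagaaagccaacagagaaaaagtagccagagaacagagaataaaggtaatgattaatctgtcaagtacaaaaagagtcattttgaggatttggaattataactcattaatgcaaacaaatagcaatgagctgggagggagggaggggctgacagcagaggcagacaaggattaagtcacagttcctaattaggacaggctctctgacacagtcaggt

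The Aqp11 window held 27 CpG and 68.0% GC, and 84.6% of the 27025 mouse promoters of this length had fewer CpG. The Aqp7 window held 0 CpG and 49.7% GC. Its second listed start had 3 CpG. Aqp8 had 6 CpG and 52.0% GC, near the median promoter with 7 CpG and 52.7% GC. Aqp9 had 1 CpG and 41.3% GC at the first start and 4 CpG at the second. Which of these starts was used in testis was not tested.

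None of 6 short motifs, searched on both strands, was found in the listed windows of Aqp7, Aqp8, Aqp9 and Aqp11. The motifs were the full cAMP response element TGACGTCA, which 1.88% of all promoters held, and its core TGACG, which lies within the full element and was held by 21.0%. The others were the nuclear receptor element AAGGTCA (4.66%), CCAAT (37.9%), the GC box GGGCGG (35.9%) and the TATA box TATAAA (14.2%). The Aqp3 window held a GC box and a TATA box, that of Aqp1 held 1 GC box and that of Aqp5 held 3.

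The total count of a mouse ranged from 3994026 to 13559548 with a median of 7103531, and both extremes were PND 17 mice. Where a mouse had 0 counts of a gene, the true level may still have been up to 3 counts, which corresponds to 0.209 to 0.726 CPM (counts scaled to library size) and covers counting error only. Sertoli cell, Leydig cell and pachytene spermatocyte markers were counted in every mouse, except that Hsd3b6 and Pgk2 had 0 counts at PND 7. PND 7 mouse 2 had 0 counts of all 5 elongating spermatid markers. The sum of 7 Leydig cell markers was 260 and 280 CPM at PND 7, 175 and 465 CPM at PND 21 and 1200 and 897 CPM at PND 28. The summed level of 8 Sertoli cell markers was 1944 to 2308 CPM at PND 7 and 697 to 844 CPM at PND 28, that of 5 pachytene spermatocyte markers went from 168 to 182 CPM to 2572 to 2769 CPM, and that of 5 round spermatid markers was 150 and 211 CPM at PND 21 and 1024 and 1036 CPM at PND 28. In the pachytene list, Pgk2 went from 53.1 and 20.3 CPM at PND 17 to 935 and 1181 CPM at PND 28. Over the same ages Sycp1 went from 574 and 571 CPM to 435 and 410 CPM, and Sycp3 from 361 and 367 CPM to 250 and 318 CPM. Hist1h1t overlapped between these ages and Piwil1 was higher at PND 28. Single libraries stood apart from their age. PND 14 mouse 1 had 194 CPM of 5 elongating spermatid markers, with all 5 counted (Prm1, Prm2, Tnp1, Tnp2 and Odf1). PND 14 mouse 2 and both PND 17 mice had 8.47 to 8.72 CPM. The 5 round spermatid markers summed to 33.1 CPM in PND 14 mouse 1 and 18.1 CPM in PND 14 mouse 2. In that order the counts were 56 and 8 for Acrv1, 48 and 1 for Tssk2 and 22 and 2 for Txndc8. They were 65 and 41 for Spaca1 and 110 and 86 for Acr. PND 17 mouse 1 had 186 CPM of 5 epididymis markers, with 2430 counts of Crisp1, 174 of Adam7 and 59 of Lcn5, and PND 7 mouse 2 had 62.6 CPM, all of it from 466 counts of Crisp1. In the other 8 mice this list lay between 0.239 and 8.04 CPM. The 8.04 CPM were in PND 28 mouse 1, the only mouse with all 5 counted (41 counts of Adam7, 7 of Lcn9, 6 of Lcn8, 3 of Crisp1 and 2 of Lcn5). Some of the members' changes that move with PND 14 mouse 1, PND 17 mouse 1 or PND 7 mouse 2 are also given without that mouse. In whole testis, fewer cells of a type and less RNA per cell cannot be told apart.

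The levels of the 8 aquaporins separated into 4 genes that reached several RPKM (read counts divided by exon length and library size, a scale on which genes can be compared) and 4 that did not. Aqp7, Aqp8, Aqp9 and Aqp11 reached a mean of 21.4 RPKM or more at PND 28, and Aqp1, Aqp3, Aqp4 and Aqp5 had at most 1.67 RPKM in any mouse. The summed RPKM of all 8 was 5.06 and 11.2 in the PND 7 mice, 17.3 and 18.1 at PND 14, 30.8 and 33.8 at PND 17, 107 and 123 at PND 21 and 240 and 270 at PND 28. The ages did not overlap in this sum.

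**Figure D1:**
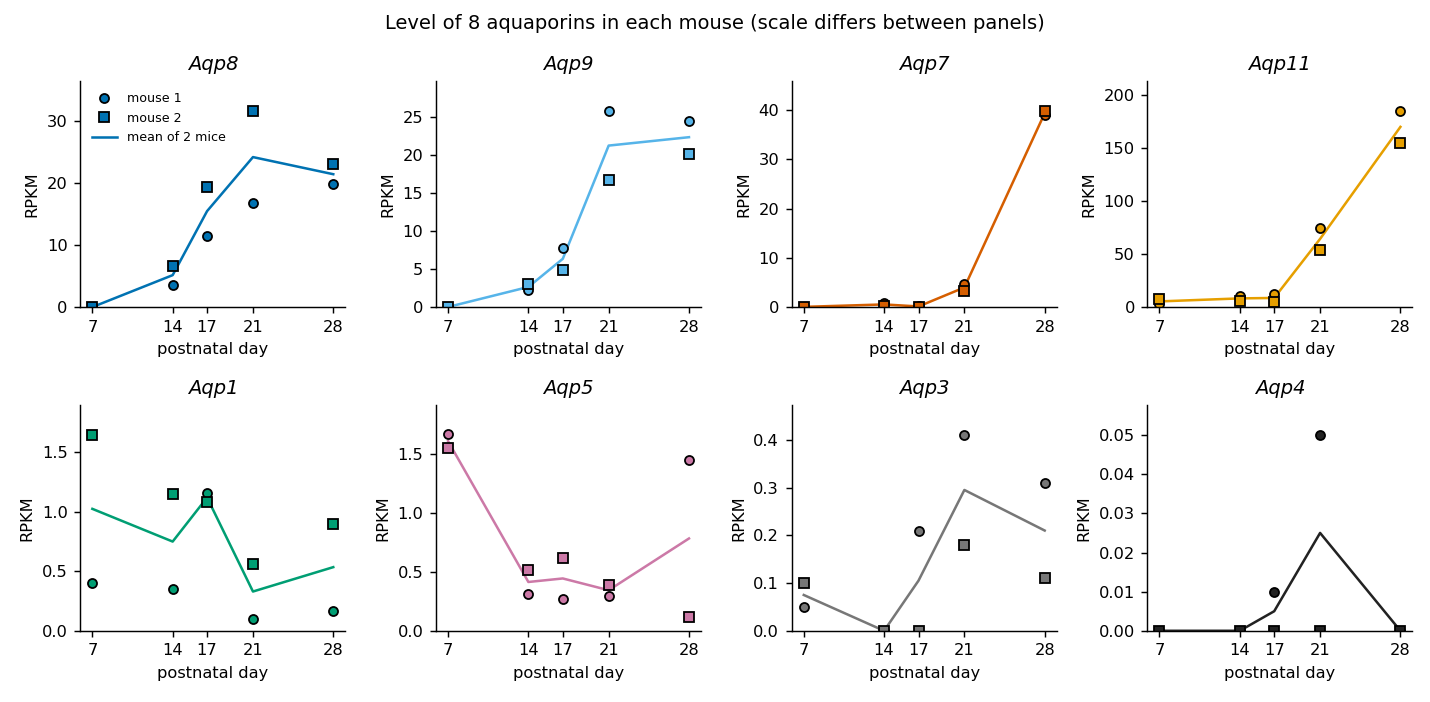
RPKM (vertical axis, from 0, with its own scale in each panel) of the 8 aquaporins against postnatal day in each of 10 mice, with a circle for mouse 1, a square for mouse 2 and a line through the mean of the 2 mice of an age. Aqp8 and Aqp9 were at or near 0 at PND 7 and counted in both mice from PND 14, Aqp7 and Aqp11 were highest at PND 28 in both mice, and the lower row stays under 2 RPKM.

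A gene was called when edgeR's quasi-likelihood test, fitted on all 10 mice, gave a Benjamini-Hochberg adjusted p under 0.05 over the 16860 genes tested and a change of at least 2-fold. Of the 8 members, 6 passed the filter on low counts and 2, Aqp3 and Aqp4, did not. Between PND 7 and 14, 3 of the 6 were called, all higher (Aqp7, Aqp8 and Aqp9), where 13.5% of all genes tested were called higher. Between PND 17 and 21, 3 were called higher (Aqp7, Aqp9 and Aqp11), with a background of 9.29%, and between PND 21 and 28, 2 (Aqp7 and Aqp11), with a background of 7.37%. From PND 7 to 28, 4 of the 6 were called higher (Aqp7, Aqp8, Aqp9 and Aqp11) and 32.2% of all genes were. Neighbouring comparisons share mice, and since the members were chosen with these values known nothing is read from their counts against the background.

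Between PND 14 and 17 edgeR called 0 of the 6 members and 0.0% of all genes. The unadjusted p was under 0.05 for 3 members, Aqp7, Aqp8 and Aqp9, and for 769 of the 16860 genes tested. DESeq2 called 0 members, beside 1 of all genes. With the criteria of the study, limma called 1 member, Aqp8, beside 4 of all genes. In all 3 of these genes the mice of the 2 ages did not overlap, with Aqp8 and Aqp9 higher and Aqp7 lower at PND 17, and edgeR called none of the 3 changes.

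**Figure D2:**
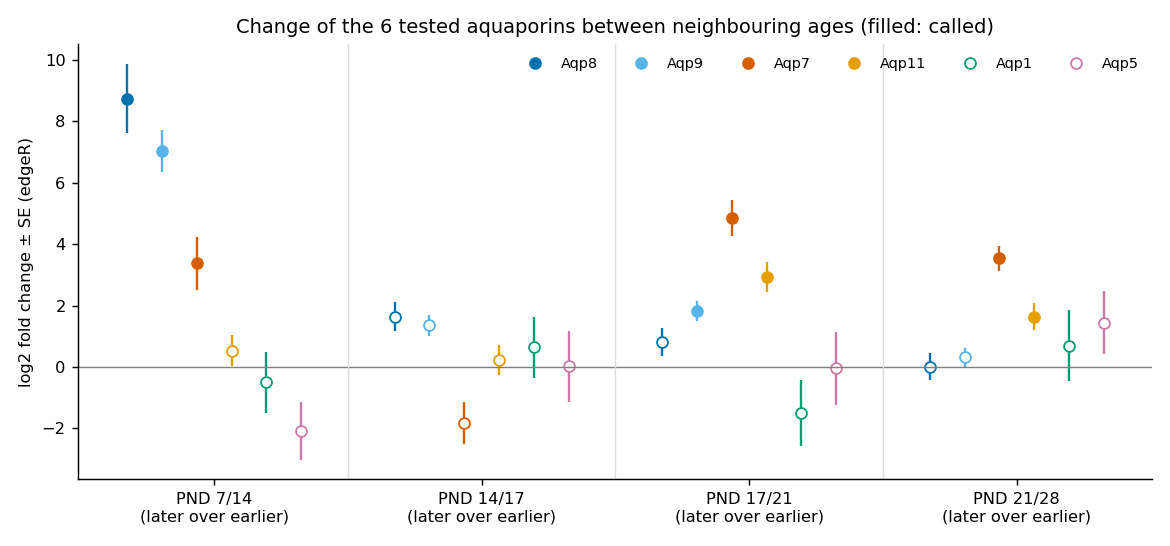
Log2 fold change of the later over the earlier age with its standard error, from edgeR, for the 6 tested aquaporins in the 4 comparisons of neighbouring ages, with filled points where the change was called. Aqp8 and Aqp9 have their largest changes at PND 7/14, Aqp7 and Aqp11 at PND 17/21, and Aqp1 and Aqp5 have no filled point.

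Aqp8 is a water channel of germ cells, liver and pancreas. It lies at chr7:130605808-130611517 on the plus strand (mm9) with 8 annotated exons, and no other annotated gene overlaps it. It had 0 counts in both PND 7 mice. It had 44 and 73 counts (3.64 and 6.66 RPKM) at PND 14, and 239 and 119 counts (11.5 and 19.4 RPKM) at PND 17. There were 105 and 306 counts (16.8 and 31.6 RPKM) at PND 21 and 272 and 184 counts (19.8 and 23.0 RPKM) at PND 28. The PND 14 mice were therefore above both PND 7 mice and the PND 17 mice above both PND 14 mice, the PND 21 mice overlapped with both PND 17 and PND 28, and PND 28 lay above PND 17.

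Against a floor of 3 counts over both PND 7 mice together, the normalised level of Aqp8 was at least 41.9-fold higher at PND 14, or at least 28.1-fold if the lower PND 14 mouse is taken alone. At PND 28 it was at least 231-fold higher. In log2 units edgeR fitted 1.64 ± 0.47 (SE) for PND 14/17, 0.82 ± 0.45 for PND 17/21 and 0.01 ± 0.44 for PND 21/28, none of them called. The sign of the last value turned negative under 1 or more of the other settings, with a range of -0.42 to 0.66. Without PND 14 mouse 1, whose elongating spermatid markers were high, the PND 14/17 value was 1.22. In the count of exons with more than 10 reads, Aqp8 had 0 at PND 7, 0 and 4 at PND 14 and 7 in each of the 6 later mice.

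Aqp9, an aquaglyceroporin best known from liver and epididymis, lies at chr9:70958466-71016489 on the minus strand with 31 annotated exons over all its transcripts, and overlaps no other gene. It had 0 and 1 counts at PND 7. There were 70 and 89 counts (2.21 and 3.09 RPKM) at PND 14 and 425 and 79 counts (7.81 and 4.90 RPKM) at PND 17. PND 21 had 423 and 427 counts (25.8 and 16.8 RPKM) and PND 28 had 885 and 424 counts (24.5 and 20.2 RPKM). No mouse overlapped with the age before it up to PND 21, and PND 21 and 28 overlapped.

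The ratio of the normalised counts of Aqp9 at PND 14 over PND 7 was 166, with a 95% counting interval of 29.4 to 6598. Such an interval covers counting error of the summed counts only and leaves out the spread between mice. It is wide here because the denominator is 1 count. That count was in PND 7 mouse 2, the mouse with 466 counts of Crisp1, and edgeR's log2 change was 7.02 ± 0.67 with both PND 7 mice and 9.17 without mouse 2, called in both. For PND 7/28 the log2 change of Aqp9 was 10.5 ± 0.61, and 12.7 without PND 7 mouse 2. It was 1.35 ± 0.34 for PND 14/17 (not called) and 1.83 ± 0.33 for PND 17/21 (called). For PND 21/28 it was 0.32 ± 0.31, not called. The PND 17/21 call was lost without PND 17 mouse 2, where the log2 change was 1.56, and without PND 21 mouse 1, where it was 1.60. PND 17 mouse 1, the mouse with 186 CPM of epididymis markers, had 29.6 CPM of Aqp9 and mouse 2, with 0.726 CPM of those markers, had 19.1 CPM. Aqp9 was also at 74.6 CPM or more in all PND 21 and 28 mice, where the epididymis list was at 8.04 CPM or less, and without PND 17 mouse 1 the log2 change of Aqp9 was 0.98 for PND 14/17 and 2.20 for PND 17/21. The part of epididymis RNA in the level at PND 17 was not tested beyond these values. Exons with more than 10 reads numbered 0 at PND 7, 4 and 4 at PND 14, 15 and 8 at PND 17, 17 and 19 at PND 21 and 22 and 15 at PND 28.

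Aqp7, the aquaglyceroporin of adipocytes and of spermatids and sperm, lies at chr4:40980107-40995172 on the minus strand with 12 annotated exons. It had 0 and 2 counts at PND 7, 18 and 5 at PND 14 and 6 and 1 at PND 17. It had 52 and 58 counts (4.64 and 3.33 RPKM) at PND 21 and 960 and 569 counts (39.0 and 39.7 RPKM) at PND 28. The mice of PND 21 lay above all younger mice and those of PND 28 above all others. The mean at PND 28 was 39.4 ± 0.53 RPKM (SD, n = 2).

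The log2 change of Aqp7 was 4.85 ± 0.58 for PND 17/21, a ratio of counts of 29.3 with a 95% counting interval of 13.7 to 74.5, and 3.54 ± 0.41 for PND 21/28, a ratio of 11.8 with an interval of 9.72 to 14.5. From PND 7 to 28 the ratio was 1142, with an interval of 316 to 9438. The log2 change over that span was 9.95 ± 0.64, and 12.9 without PND 7 mouse 2. The PND 21/28 change was called in every setting tried, leaving out each mouse included. Only 1 exon had more than 10 reads in each PND 21 mouse, while 10 and 9 exons had them at PND 28.

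The earlier rise of Aqp7 rests on few reads. The log2 change was 3.37 ± 0.86 for PND 7/14 and was called, and it was no longer called without PND 14 mouse 1, where it was 2.31, or without PND 7 mouse 1, where it was 2.29. Both PND 7 counts were in mouse 2, and without that mouse the log2 change was 6.35 and was called. PND 14 mouse 1, which had 18 of the 23 counts, was the mouse with 194 CPM of elongating spermatid markers, against 8.54 CPM in mouse 2. From PND 14 to 17 the log2 change was -1.82 ± 0.69, not called, and -0.79 without PND 14 mouse 1. Aqp7 is an adipocyte gene as well. The summed level of 4 adipocyte markers was 0 CPM at PND 7 and 8.72 and 6.0 CPM at PND 28, where Aqp7 was at 131 CPM in both mice. Most of that sum was Adipoq, with 59 and 23 counts (8.04 and 5.31 CPM), beside 3 and 3 counts of Cidec, 2 and 0 of Lep and 0 and 0 of Cfd. The part of these cells in the level of Aqp7 was not tested.

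Aqp11, the aquaporin of the endoplasmic reticulum, is known from kidney, liver and testis. It lies at chr7:104874889-104886757 on the minus strand with 4 annotated exons. It was counted in every mouse, with 36 and 73 counts (2.94 and 7.80 RPKM) at PND 7, 109 and 52 counts (10.8 and 5.66 RPKM) at PND 14 and 219 and 24 counts (12.6 and 4.67 RPKM) at PND 17. PND 21 had 393 and 438 counts (75.0 and 53.9 RPKM) and PND 28 had 2131 and 1041 counts (185 and 155 RPKM). The 3 youngest ages overlapped with each other, and PND 21 and then PND 28 lay above them without overlap.

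The log2 change of Aqp11 was 0.52 ± 0.50 for PND 7/14 and 0.24 ± 0.49 for PND 14/17, neither called. Without PND 17 mouse 1 the PND 14/17 value was -0.71. For PND 17/21 the log2 change was 2.93 ± 0.49, a ratio of 6.37 with a 95% counting interval of 5.52 to 7.38. For PND 21/28 it was 1.64 ± 0.45, a ratio of 3.24 with an interval of 3.0 to 3.5. Both were called. The PND 17/21 call was lost without PND 17 mouse 2, where the log2 change was 2.47, and it was kept without PND 17 mouse 1, where the change was 3.87. The PND 21/28 call was lost without any of the 4 mice of the comparison, and with scaling by library totals, a filter of at least 1 CPM in 2 mice, the mouse number as a block, limma, or without structural RNAs and mitochondrial genes, while the log2 change stayed between 1.4 and 1.8. PND 14 mouse 1 had the higher Aqp11 of its age, 12.0 against 6.84 CPM, beside its high elongating spermatid markers, and without it the PND 7/14 log2 change was 0.03. Without PND 7 mouse 2 that change was 1.4, not called.

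**Figure D3:**
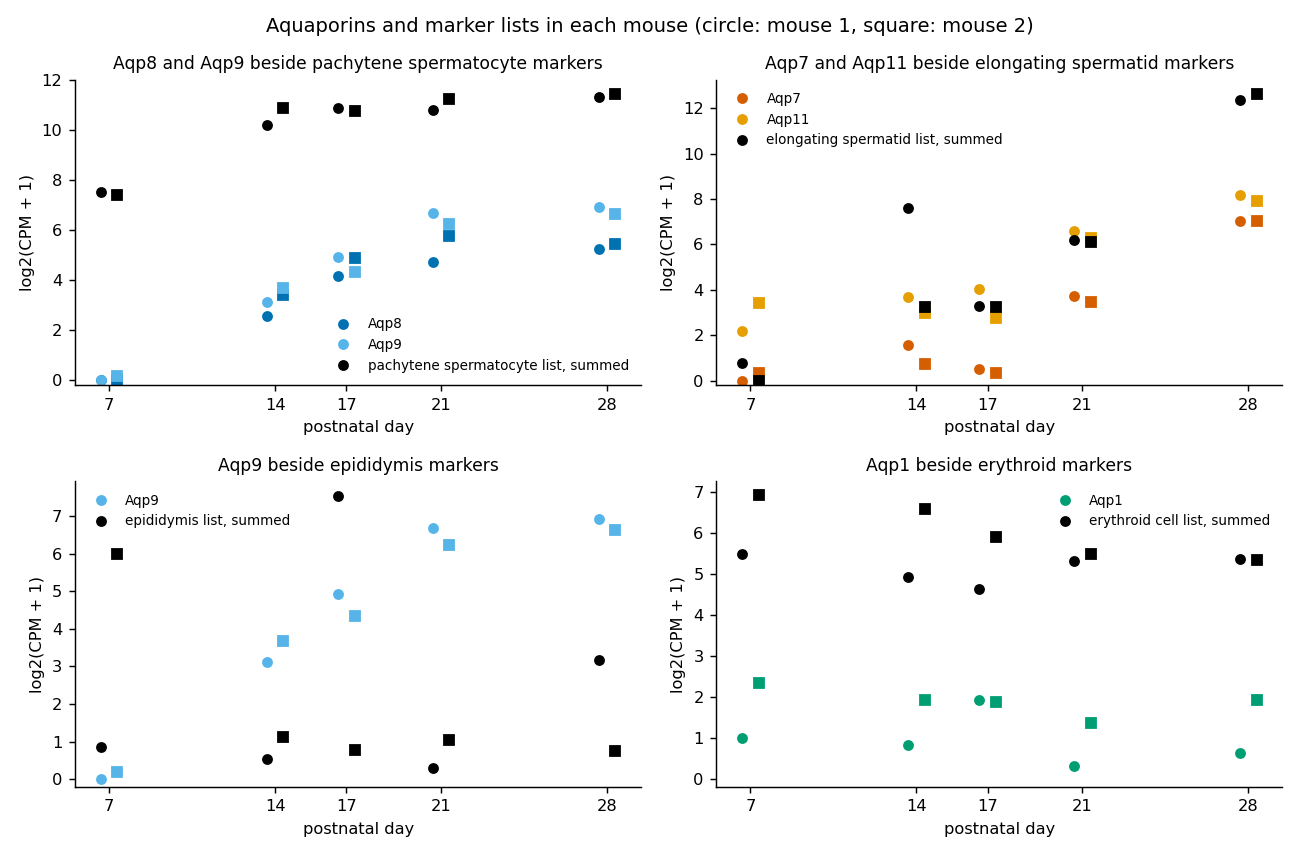
Level on the log2(CPM + 1) scale against postnatal day in each mouse for Aqp8 and Aqp9 beside the summed pachytene spermatocyte markers, Aqp7 and Aqp11 beside elongating spermatid markers, Aqp9 beside epididymis markers and Aqp1 beside erythroid markers (circles mouse 1, squares mouse 2). PND 14 mouse 1 stands apart in the elongating spermatid list, and PND 7 mouse 2 and PND 17 mouse 1 in the epididymis list. The elongating spermatid sum was 72.5 and 67.1 CPM at PND 21 and 5248 and 6288 CPM at PND 28. Round spermatid markers are not drawn, and their sum was 211 and 150 CPM at PND 21 and 1036 and 1024 CPM at PND 28. The pachytene sum includes Pgk2, which rose to 935 and 1181 CPM at PND 28, while Sycp1 and Sycp3 were lower there than at PND 17.

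Aqp1, the water channel of red cells, capillary endothelium and efferent ducts, lies at chr6:55286426-55298549 on the plus strand (mm9). It had 10 and 30 counts at PND 7, 7 and 21 at PND 14, 40 and 11 at PND 17, 1 and 9 at PND 21 and 4 and 12 at PND 28. The highest RPKM was 1.65, in PND 7 mouse 2, and all neighbouring ages in the order of means overlapped. In order of time, both PND 17 mice (2.79 and 2.66 CPM) lay above both PND 21 mice (0.239 and 1.57 CPM), and the other steps overlapped. No change was called, and the log2 values lay between -1.50 (PND 17/21) and 0.70 (PND 21/28). Without PND 7 mouse 2 the PND 7/14 value went from -0.50 to 0.79 and the PND 7/28 value from -0.66 to 0.59. Mouse 2 had the higher level at PND 7, 14, 21 and 28, and at PND 7, 14 and 21 it also had the higher sum of 6 erythroid markers, 120 against 43.3 CPM, 94.5 against 29.3 CPM and 43.5 against 38.7 CPM. At PND 17 the erythroid sum was 58.8 CPM in mouse 2 and 23.5 CPM in mouse 1 while Aqp1 was 2.66 and 2.79 CPM, and at PND 28 it was 39.5 and 39.9 CPM while Aqp1 was 2.77 and 0.545 CPM. Within the erythroid list, Hbb-b1 went from 29.5 and 89.3 CPM at PND 7 to 14.2 and 12.7 CPM at PND 28. Hbb-b2 was also lower at PND 28, while Alas2 went from 2.80 and 10.3 CPM to 19.9 and 22.4 CPM. The sum of 7 endothelial markers was 112 and 146 CPM at PND 7 and 38.8 and 58.8 CPM at PND 28. The part of blood or vessel RNA in the level of Aqp1 was not tested.

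Aqp5, the water channel of salivary and lacrimal glands and lung, lies at chr15:99421280-99425260 on the plus strand. It had 28 and 18 counts at PND 7, or 1.67 and 1.56 RPKM. It had 4 and 6 counts at PND 14, 6 and 4 at PND 17 and 2 and 4 at PND 21. At PND 28 the mice differed, with 21 counts (1.45 RPKM) in mouse 1 and 1 count (0.12 RPKM) in mouse 2. Mouse 1 was the mouse with all 5 epididymis markers counted (8.04 CPM against 0.692 CPM in mouse 2). PND 17 mouse 1, with 186 CPM of those markers, had 0.42 CPM of Aqp5, against 0.97 CPM in PND 17 mouse 2. PND 7 mouse 2, with 62.6 CPM of them, had 2.42 CPM of Aqp5, against 2.80 CPM in PND 7 mouse 1. The part of epididymis RNA in the Aqp5 level of PND 28 mouse 1 was not tested. PND 7 did not overlap with PND 14, 17 or 21 and overlapped with PND 28. The PND 7/14 log2 change of -2.08 ± 0.94 was not called, nor was any other.

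Aqp3, an aquaglyceroporin of kidney collecting duct and skin, lies at chr4:41039755-41045216 on the minus strand. It had 1 and 1 counts at PND 7, 0 and 0 at PND 14, 5 and 0 at PND 17, 3 and 2 at PND 21 and 5 and 1 at PND 28. Aqp4, the water channel of brain glia, had 1 count in PND 17 mouse 1, 1 in PND 21 mouse 1 and 0 in the other 8 mice. Neither gene had an exon with more than 10 reads in any library. Aqp3 never exceeded 0.41 RPKM and Aqp4 never exceeded 0.05 RPKM, so no difference between ages was detectable at this depth.

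The order of the members by mean RPKM changed with age. At PND 7 Aqp11 was highest with 5.37 ± 3.44 RPKM (SD, n = 2), above Aqp5 without overlap, and Aqp5 and Aqp1 overlapped. At PND 14 Aqp11 and Aqp8 overlapped at 8.22 ± 3.61 and 5.15 ± 2.14 RPKM. At PND 17 Aqp8 had the highest mean, 15.5 ± 5.56 RPKM, and overlapped with Aqp11 at 8.64 ± 5.61 RPKM. At PND 21 Aqp11 led with 64.5 ± 15.0 RPKM, and Aqp8 and Aqp9 overlapped at 24.2 ± 10.4 and 21.3 ± 6.37 RPKM. At PND 28 Aqp11 at 170 ± 20.9 RPKM was followed by Aqp7 at 39.4 ± 0.53 RPKM without overlap, and Aqp9 and Aqp8 overlapped at 22.4 ± 3.05 and 21.4 ± 2.29 RPKM.

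As a share of the summed RPKM of the 8 genes, Aqp11 took 58.1% and 69.5% at PND 7, 37.3% and 15.2% at PND 17 and 68.5% and 64.9% at PND 28. Aqp8 took 34.2% and 63.1% at PND 17. Aqp7 took 14.4% and 16.6% at PND 28. Aqp5 took 33.0% and 13.9% at PND 7.

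**Figure D4:**
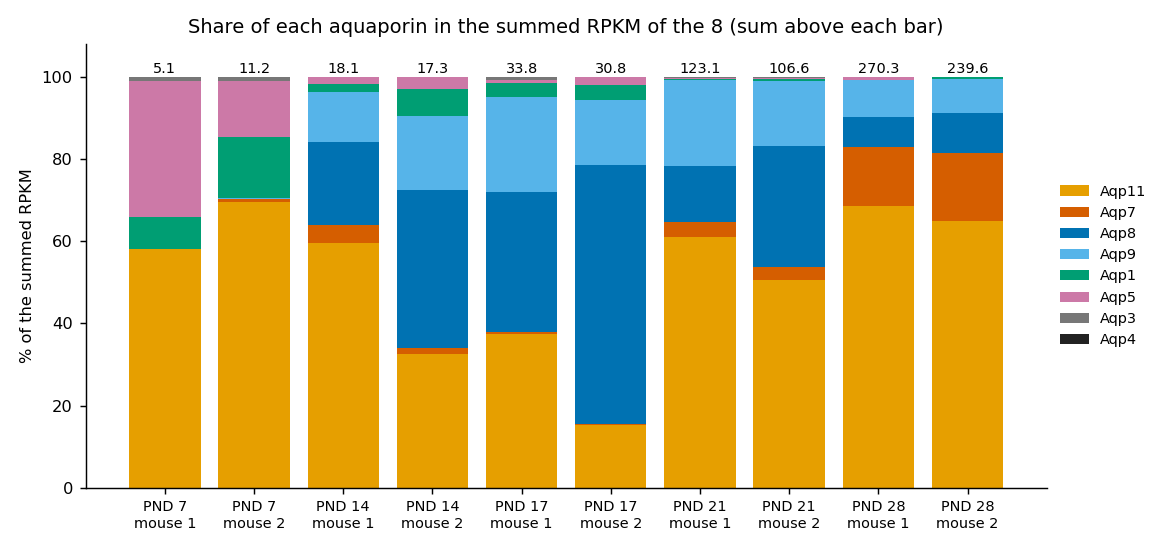
Share in percent of each aquaporin in the summed RPKM of the 8 genes (stacked bars, from 0) in each of the 10 mice, with the summed RPKM above each bar. Aqp11 is the largest share at PND 7, 21 and 28 and Aqp8 in PND 14 mouse 2 and PND 17 mouse 2.

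The members' patterns over the 10 mice were most alike in 2 pairs, given here as a description over mice that share ages and scaling. Pearson's r of log2(CPM + 1) was 0.962 between Aqp8 and Aqp9 and 0.966 between Aqp7 and Aqp11, while across these pairs it was 0.816 between Aqp9 and Aqp11, 0.756 between Aqp7 and Aqp9, 0.684 between Aqp8 and Aqp11 and 0.637 between Aqp7 and Aqp8. Of all genes tested, the 3 with the pattern most like that of Aqp7 were Spaca4, a protein of the sperm acrosome, 1700010M22Rik and 1700090G07Rik, each with r of 0.998. For Aqp8 they were Prss45, a serine protease, with r of 0.994, Hsf2bp, a protein of meiotic recombination, with 0.984, and Gm15070 with 0.984. For Aqp9 they were Caps2, Efcab5 and 4932702P03Rik, each with r of 0.998, and for Aqp11 1700019L03Rik, Mfsd11 and Itgb1bp1, with 0.995, 0.992 and 0.992. The weakly counted Aqp1 was most like Vnn1 (r of 0.954), AL844869.1 and Tlr7, and Aqp5 most like B3galnt2 (0.910), Gdpd3 and Myoz2. All r are over 10 mice.

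Aqp7 and Aqp3 lie 44582 bp apart on chromosome 4, and Aqp7 had 1529 counts at PND 28 where Aqp3 had 6. Aqp5 lies 6303 bp from Aqp2 and 6570 bp from Aqp6 on chromosome 15.

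Of the other 4 aquaporins of the table, Aqp2 was the only 1 to pass the filter. Aqp2, the vasopressin-regulated channel of the kidney collecting duct, had 28 and 0 counts at PND 7, 26 and 17 at PND 14, 56 and 19 at PND 17, 2 and 40 at PND 21 and 67 and 35 at PND 28. It reached 5.43 and 4.88 RPKM at PND 28, above any mouse of Aqp1, Aqp3, Aqp4 or Aqp5. The log2 change from PND 7 to 28 was 2.54 ± 1.11 with an adjusted p of 0.067 by edgeR's quasi-likelihood test. The PND 28 mice were both above both PND 7 mice. With all 10 mice, edgeR called 0 of the 4 in each of the 5 comparisons. The unadjusted p of Aqp2 was under 0.05 in 1 comparison, PND 7/28, as it was for 11185 of the 16860 genes tested. DESeq2 called Aqp2 there and limma called 0. It was also called there by edgeR without a filter and without PND 7 mouse 1, whose 28 counts made up all of the PND 7 level, and without either PND 21 mouse. Aqp6, an anion-conducting channel of kidney vesicles, had 5 counts in all mice together, 3 of them in PND 14 mouse 1. Aqp12, of pancreatic acinar cells, had 8 counts in PND 7 mouse 1 and at most 2 in any other mouse. Mip, the channel of lens fibres, had 0 counts in all mice. Its exons share bases with Gm17292, a lincRNA on the minus strand.

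Genes that make, use or release glycerol, the solute of the aquaglyceroporins, were taken as a list of 18 genes, all of which were tested. The list was chosen with earlier results of these data known. Its calls, and the adjusted p-values of genes named from it, are therefore a description that supports nothing. Between PND 7 and 14, 5 were called higher and 1 lower (Lpl, lipoprotein lipase, with a log2 change of -2.0 ± 0.34), where 13.5% of all genes were called higher and 5.43% lower, and the list's median log2 change was 0.50 against 0.11 over all genes. Between PND 17 and 21, 5 were called higher, beside 9.29% of all genes, with a median of 0.47 against 0.00. Between PND 21 and 28, 6 were called higher, beside 7.37% of all genes, with a median of 0.42 against 0.03. From PND 7 to 28, 12 were called higher and 2 lower (Lpl and Gk5), beside 32.2% and 23.4% of all genes, with a median of 2.32 against 0.10. Between PND 14 and 17 edgeR and DESeq2 both called 0 and limma called 0. An unadjusted p under 0.05 was found for 2, beside 769 of the 16860 genes tested. Lpl and Gk5 are named for the small size of their group, after their values were seen.

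Glycerol kinase genes of the testis gave the largest changes of this list at PND 7/14 and PND 7/28. Gk2 had 0 counts in both PND 7 mice, 435 and 738 at PND 14 and 8473 and 4624 at PND 28. It was at least 408-fold higher at PND 14 than at PND 7 against 3 counts over both PND 7 mice (edgeR, adjusted p = 1.73e-05). Gykl1 went from 0 counts in both to 221 and 260 at PND 14 and 4697 and 2884 at PND 28, at least 167-fold higher at PND 14 (edgeR, adjusted p = 1.28e-05). These are intronless relatives of the X-linked glycerol kinase gene, and how reads shared between such copies were divided is not known beyond the use of unique alignments. Both were thus present in both mice at PND 14, as Aqp9 was, and their levels continued to rise from PND 17 to 21, with log2 changes of 2.13 ± 0.37 for Gk2 and 2.52 ± 0.30 for Gykl1. The PND 17/21 call of Gk2 was lost without PND 17 mouse 2, where the change was 1.78.

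Agpat9, a glycerol-3-phosphate acyltransferase, had 0 counts at PND 7 and 20 and 9 at PND 14, at least 10.1-fold higher (edgeR, adjusted p = 0.00402). In the step from PND 21 to 28, in which Aqp7 rose 11.8-fold by the counts, the largest changes were those of Lipe, hormone-sensitive lipase, with 44 and 26 counts at PND 21 and 1012 and 613 at PND 28 (log2 change 4.24 ± 0.56, edgeR adjusted p = 0.00156), and of Gpd2, mitochondrial glycerol-3-phosphate dehydrogenase (2.97 ± 0.67, adjusted p = 0.0202 by edgeR). The call of Gpd2 was lost without any of the 4 mice, with log2 changes of 2.47 to 3.71, and that of Lipe was kept. Dgat2, an enzyme of triglyceride synthesis, followed with 2.21 ± 0.24.

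Genes of ion transport and cell volume made up a list of 34, of which 29 were tested. It too was chosen with earlier results of these data known, so its calls and adjusted p-values are a description that supports nothing. Between PND 7 and 14, 3 were called higher, between PND 17 and 21, 2 and between PND 21 and 28, 4, where 13.5%, 9.29% and 7.37% of all genes were. None was called lower in these steps, where 5.43%, 1.05% and 0.297% of all genes were, and the list's medians of -0.07, -0.03 and 0.04 lay near those of all genes, 0.11, 0.00 and 0.03. From PND 7 to 28, 8 were called higher and 7 lower, shares of the 29 close to the 32.2% higher and 23.4% lower of all genes, with a median of -0.18 against 0.10. The 7 lower genes, named after their values were seen, were Slc26a6, Lrrc8d (log2 change -2.61 ± 0.68), Slc12a4, Clcn2, Slc4a2, Slc12a7 and Atp1b1. Between PND 14 and 17 edgeR, DESeq2 and limma each called 0. An unadjusted p under 0.05 was found for 4, beside 769 of the 16860 genes tested.

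Atp1a4, the sodium pump subunit of sperm, had 0 counts in both PND 7 mice, 164 and 8 at PND 14, 20 and 8 at PND 17, 190 and 145 at PND 21 and 3787 and 2661 at PND 28. The PND 14 level came from mouse 1, the mouse with the high elongating spermatid markers, so that the change from PND 7 was at least 59.9-fold over both mice and at least 6.11-fold by mouse 2. From PND 7 to 28 it was at least 3211-fold higher (edgeR, adjusted p = 3.23e-05). Slc26a8, an anion transporter of germ cells, had 20 and 0 counts at PND 7 and 156 and 186 at PND 14 (log2 change 4.21 ± 0.65, edgeR adjusted p = 0.00118). Slc9a2, a sodium and proton exchanger, had 5 and 17 counts at PND 7 and 111 and 99 at PND 14 (3.24 ± 0.54, edgeR adjusted p = 0.00192). Car2, a carbonic anhydrase, had 6 and 13 counts at PND 21 and 416 and 327 at PND 28 (5.11 ± 0.67, edgeR adjusted p = 0.00155). Lrrc8b, a subunit of volume-regulated anion channels, had 164 and 128 counts at PND 21 and 1689 and 1165 at PND 28 (3.03 ± 0.45, edgeR adjusted p = 0.00276), a call lost without PND 21 mouse 2 at a log2 change of 2.67. Slc14a2, a urea transporter, had 0 counts at PND 7 and 34 and 27 at PND 28, at least 30.4-fold higher.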

How the data were processed

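Whole testes of 10 mice were measured by RNA-seq. The authors aligned reads of 50 bp to mm9 (also named in the submitters' processing notes) with LifeScope, left out any read that aligned to more than 10 places, and deposited for every Ensembl gene the raw count of uniquely aligned exon reads. The deposited RPKM values, also by the authors, divide these counts by exon length and by the counted reads of the library. The number of exons with more than 10 reads was deposited by the authors as well. Whether counting used strand is not given in the sources used here. Symbols and places came from GENCODE M1 on mm9, in which 37310 of 37675 genes were found.

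For PND 7, the counts of the 2 barcodes of a mouse were summed and their RPKM averaged. Counts were analysed with edgeR 4.0.16 (R 4.3.3, TMM, filterByExpr, quasi-likelihood test, age as the only factor, all 10 mice in a single fit), because an age has only 2 mice. The common dispersion was 0.0726. CPM values use TMM-scaled library sizes. Calls needed a Benjamini-Hochberg adjusted p under 0.05 and at least a 2-fold change. For an age at 0 counts, folds were taken against 3 counts for its 2 mice together. Ratios of counts carry an exact 95% counting interval, taken on the counts summed over the 2 mice, which leaves out the spread between mice. The paper's chronological comparisons were used, and PND 7/28 was added. The scripts were tested on simulated data. Alternatives were limma 3.58.1 on log2(RPKM + 1) or log2(RPKM + 0.1) with the study's criteria (read as p at most 0.01, 2-fold, 10 RPKM), DESeq2 1.42.0, other scalings and filters, a mouse-number block, the first PND 7 barcode only, other sets of genes or mice, and leaving out each mouse.

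The members and all lists were chosen with earlier results of these data known. Named genes are all aquaporins, up to 3 called genes with the largest change per list and comparison, and, for members with a mean of at least 1 CPM, the 3 genes with the most similar pattern. Genes of the lists that were called lower are also named. RefSeq promoters were read for 7 members, and Aqp4 was left out by a rule on its chromosome. No 2 mice of the same age had counts that agreed within sampling noise. Figures used Python 3.11.15 and matplotlib 3.10.9.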

Additional observations from a re-analysis of the deposited data

How the results depend on the processing

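Of 624 values of the members' log2 changes under other settings, 547 moved by less than their spread, 77 moved by more and 0 of the 12 called changes were reversed. The count of members called fell from 3 to 0 at PND 7/14 with limma at either pseudocount. There the criteria of the study ask for a difference of 10 RPKM between the means. The highest mean of a member was 5.37 RPKM at PND 7 and 8.22 RPKM at PND 14, so limma could call none. At PND 14/17 it was 1 with limma at either pseudocount and 2 without a filter on low counts. At PND 21/28 it was 1 in place of 2 with library totals, limma at either pseudocount, at least 1 CPM in 2 mice, and without structural RNAs and mitochondrial genes. Leaving out each mouse gave 1 to 3 members called at PND 17/21, with 1 without PND 17 mouse 2, and 1 to 2 at PND 21/28. Of the other aquaporins, 1 was called at PND 7/28 with DESeq2 and without a filter, and leaving out each mouse gave 0 to 1 at PND 7/14 and 0 to 1 at PND 7/28. Of the glycerol list, limma called 2 at either pseudocount at PND 7/14 and at PND 17/21, and 3 or 2 at PND 21/28, where library totals gave 3. Leaving out each mouse gave 1 to 6 at PND 17/21 and 3 to 7 at PND 21/28. Of the ion list, limma called 0 at PND 7/14 at either pseudocount and 8 at PND 7/28, and at pseudocount 0.1 it called 1 at PND 17/21 and 2 at PND 21/28. DESeq2 called 1 at PND 17/21. Without a filter 5 were called at PND 7/14 and 2 at PND 14/17. Leaving out each mouse gave 3 to 5 at PND 7/14, 0 to 1 at PND 14/17, 0 to 2 at PND 17/21 and 1 to 5 at PND 21/28. The cause of the other differences was not tested. Leaving out a mouse leaves an age with 1 mouse, which is assumed to vary like the other ages.

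Mouse numbers are shared between ages, and the deviations of same-numbered mice correlated at -0.17 to 0.343 over 10 pairs of ages. The highest value, 0.343, was between PND 14 and PND 21. These correlations cannot tell whether same-numbered mice shared a preparation or run, and this was not tested. With the mouse number as a replicate block, 1 member was called at PND 21/28 in place of 2, and no other count of calls moved by over 1.5 times.

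Scaling moved the median log2 change of all genes by -0.32 (library totals) and 0.17 (RLE) at PND 7/28 and by -0.22 (library totals) at PND 21/28. With 2 mice per age, levels of a few counts, as for Aqp1, Aqp3, Aqp4 and Aqp5, allow no firm order of ages, and p-values rest on a spread shared over all ages.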
